A study of Mus musculus with 7 samples.

Results

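Cyclin-dependent kinase inhibitors are the small proteins that hold back the kinases driving the cell cycle, and 7 genes encode them in the mouse. The 7 were found by their symbols in the GENCODE M21 annotation of mm10, among 55487 gene identifiers counted in each library, and all 7 passed the filter on low counts. They are Cdkn1a (p21), Cdkn1b (p27) and Cdkn1c (p57) of the CIP/KIP family, and Cdkn2a (p16 and, from another reading frame, p19ARF), Cdkn2b (p15), Cdkn2c (p18) and Cdkn2d (p19) of the INK4 family. The family was selected on the CPM values of its members in the CNTR and PAMH F3 libraries described below, among them the low values of Cdkn1a and Cdkn2b. Differences of the 7 genes between the groups are therefore a description, without a test.

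Whole ovaries of adult C57BL/6J females, taken at diestrus on postnatal day 60, were compared by poly(A) RNA-seq. The 3 CNTR libraries came from daughters of dams that received PBS over the last days of gestation. The 4 PAMH F3 libraries came from the generation 3 descendants of dams that received human anti-Müllerian hormone (AMH) at 0.12 mg/kg per day over the same days, a line bred as a model of polycystic ovary syndrome (PCOS) with no further AMH given. The CNTR mice were of generation 1, so that the ancestral AMH and the generation cannot be told apart. The litters behind the libraries are not given in the sources used here, and an SD or p value measures the spread between these libraries. Between 32158174 and 35485021 reads per library were counted on genes, and levels are given as CPM, gene counts scaled by TMM to a common library size. No marker listed for a cell type, such as Amh and Foxl2 for granulosa cells and Zp3 and Gdf9 for oocytes, was at 0 in all libraries, although Insl3, a marker of theca cells, was at 0 in 2 of the 3 CNTR libraries, averaged 0.0656 CPM in PAMH F3 and did not pass the filter on low counts. CNTR replicate 2 stood apart in its dependence on base composition, with a slope of 0.32 log2 units for each 10% of GC content, against slopes of -0.13 to 0.05 in the other 6 libraries.

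CIP/KIP proteins bind complexes of cyclins with CDK2, CDK4 and CDK6, whereas INK4 proteins bind CDK4 and CDK6 and keep D-type cyclins from them. With those kinases inactive, the retinoblastoma protein holds the E2F factors and the cell stays in G1. In the ovary, p27 is known as a brake on the growth of granulosa cells and on the activation of primordial follicles, and p21 and p27 accumulate as granulosa cells leave the cycle to form the corpus luteum. Cdkn1a is a classical target of p53, Cdkn2b of TGF-beta signaling, and Cdkn1b of FOXO factors.

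The sequences before the start sites of Cdkn1a and Cdkn2b are shown because these were the members whose PAMH F3 libraries all lay below the CNTR libraries. Windows came from RefSeq on GRCm38.p6, the assembly also called mm10, for 6 of the 7 genes. Each line gives the 250 bases before a start site, 5′ to 3′ on the gene's strand, and capitals mark motif matches on either strand.
Cdkn1a, upstream start site, chr17:29090729-29090978, plus strand: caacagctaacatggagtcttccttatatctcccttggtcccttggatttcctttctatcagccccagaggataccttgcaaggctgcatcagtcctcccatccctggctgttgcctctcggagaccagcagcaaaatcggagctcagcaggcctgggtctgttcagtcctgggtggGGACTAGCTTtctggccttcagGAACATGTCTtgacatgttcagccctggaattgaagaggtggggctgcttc
Cdkn1a, downstream start site, chr17:29093519-29093768, plus strand: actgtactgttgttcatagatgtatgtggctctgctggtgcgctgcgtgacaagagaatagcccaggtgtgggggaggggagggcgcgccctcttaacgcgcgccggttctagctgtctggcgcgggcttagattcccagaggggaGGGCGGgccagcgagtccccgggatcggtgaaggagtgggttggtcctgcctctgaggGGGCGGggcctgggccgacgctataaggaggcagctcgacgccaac
Cdkn2b, chr4:89311033-89311282, minus strand: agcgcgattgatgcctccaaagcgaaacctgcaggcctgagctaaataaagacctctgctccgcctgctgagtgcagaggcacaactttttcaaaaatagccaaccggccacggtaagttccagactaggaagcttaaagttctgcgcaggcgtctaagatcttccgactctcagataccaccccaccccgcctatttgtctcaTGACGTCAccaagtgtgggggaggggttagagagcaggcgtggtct
The motifs searched were the p53 half-site consensus of 10 letters, the GC box GGGCGG, the FOXO motif GTAAACA, the CRE TGACGTCA, the E-box CACGTG, the TATA box TATAAA and CCAAT, over windows that also held the 50 bases after the start site. Before the upstream start site of Cdkn1a, matches to the p53 half-site began 73 and 51 bases from it. Of 32851 windows of this size across the genome, 8.36% held at least 1 such match and 0.359% held 2 or more. The 2 matches of Cdkn1a did not lie end to end. Only exact matches to the consensus were sought, so a near match beside them would not be marked. Before the downstream start site of Cdkn1a there were 2 GC boxes, a motif present in 35.7% of windows, and no p53 half-site. The Cdkn2b window held a CRE 46 bases from the start site, as 1.79% of windows did, and a GC box just after the start site. The FOXO motif, found in 3.65% of windows, was in none of the windows of these 6 genes. A match of letters is a description and not evidence of binding.

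In these ovary samples, which also held RNA of oviduct markers, Cdkn1b was the most abundant inhibitor per length of transcript. Its level was 51.9 ± 7.97 CPM per kilobase of exon (SD, n = 7), which was 53.4% of the summed level of the 7 genes. Cdkn1a followed at 14.3 ± 4.65 CPM per kilobase (SD, n = 7) and Cdkn2c at 11.1 ± 1.27 CPM per kilobase (SD, n = 7). Cdkn2b, at 9.40 ± 4.96 CPM per kilobase (SD, n = 7), Cdkn2d, at 6.14 ± 0.577, and Cdkn1c, at 4.14 ± 1.25, came next on the same scale. Cdkn2a was last, at 0.597 ± 0.250 CPM per kilobase (SD, n = 7). Neighbors in this order were compared within libraries by an exact paired permutation test of the log2 ratio (two-sided, 6 pairs, smallest possible p = 0.0156). Cdkn1b exceeded Cdkn1a by 3.77-fold, Cdkn2d exceeded Cdkn1c by 1.53-fold and Cdkn1c exceeded Cdkn2a by 7.22-fold in 7 of 7 libraries (exact permutation test, adjusted p = 0.03125 for each). The neighboring pairs Cdkn1a and Cdkn2c, Cdkn2c and Cdkn2b, and Cdkn2b and Cdkn2d did not differ beyond their spread over the 7 libraries (exact permutation tests, adjusted p from 0.09375 to 0.21875). That spread includes the difference between the groups. In CNTR alone the lowest value of Cdkn1a (17.9 CPM per kilobase) lay above the highest of Cdkn2c (13.1 CPM per kilobase), and in PAMH F3 their ranges overlapped. Pairs that are not neighbors were not tested, and the lowest values of Cdkn1a (9.34 CPM per kilobase) and Cdkn2c (9.87 CPM per kilobase) lay above the highest value of Cdkn2d (7.17 CPM per kilobase). The order of the means also differed between the groups, which was not tested. In the CNTR libraries alone, Cdkn1a came second at 19.0 ± 1.36 CPM per kilobase (SD, n = 3), Cdkn2b next at 13.4 ± 5.52 and Cdkn2c after it at 11.4 ± 1.54. In the PAMH F3 libraries alone, Cdkn2c at 10.9 ± 1.23 CPM per kilobase (SD, n = 4) and Cdkn1a at 10.7 ± 1.63 followed Cdkn1b. Cdkn2b was at 6.37 ± 0.597 there. In CNTR the Cdkn2b and Cdkn2c means lay within the SD of Cdkn2b of each other, but not within that of Cdkn2c. The Cdkn2c and Cdkn1a means in PAMH F3 lay within either SD of each other. The other 4 genes had the same position in either group as over all libraries. The median length of the annotated transcripts, used in place of the union of exons, put Cdkn1c above Cdkn2b and Cdkn2d.

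**Figure D1:**
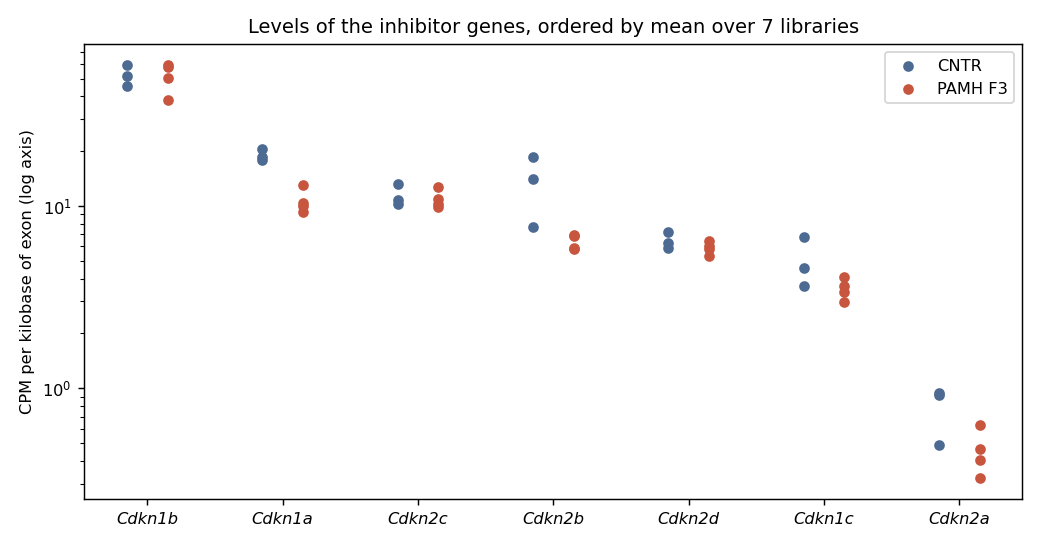
Levels of the 7 inhibitor genes in CPM per kilobase of exon (log axis), with 1 point per CNTR or PAMH F3 library and genes ordered by their mean over 7 libraries. Cdkn1b lies above all others and Cdkn2a, at 0.597 CPM per kilobase on average, below all others in every library.

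Of the 7 members, 2 had every PAMH F3 library below every CNTR library, namely Cdkn1a and Cdkn2b. Over all 18779 genes tested, 2.4% were placed in this way, and 4.25% had no overlap in either direction. All 7 members had a lower mean log2 CPM in PAMH F3, a direction shared by 48.4% of the genes tested. Relative to CNTR, the mean CPM of PAMH F3 was 43.6% lower for Cdkn1a, 52.6% lower for Cdkn2b, 42.3% lower for Cdkn2a and 29.4% lower for Cdkn1c, and between 1.26% and 8.37% lower for Cdkn1b, Cdkn2c and Cdkn2d. In edgeR's quasi-likelihood fit with 2 surrogate variables, 0 of the 7 members had an adjusted p of at most 0.05, and 0 of all genes did (0%). An unadjusted p under 0.05 was found for 3 members (Cdkn1a, Cdkn1c and Cdkn2b) each with the lower level in PAMH F3, and for 7.64% of all genes, of which the lower ones made up 3.89% of all genes. With these surrogate variables in DESeq2, 2 members, Cdkn1a and Cdkn2b, were called, and 0.591% of all genes, while Cdkn2a received no adjusted p there. Because the family was selected on the same values, these p values and calls of its members are a description and not a test.

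Cdkn1a (ENSMUSG00000023067, chromosome 17 from 29090976 to 29100727) encodes p21, the inhibitor induced by p53 and other stress signals. It was at 66.0, 73.0 and 63.7 CPM in CNTR replicates 1 to 3, and at 46.5, 36.9, 33.2 and 35.8 CPM in PAMH F3 replicates 1 to 4. No library lay between 46.5 and 63.7 CPM, and PAMH F3 replicate 1 was the highest library of its group. The difference in mean log2 CPM, PAMH F3 minus CNTR, was -0.84 ± 0.12 (SE), with group means of 67.6 ± 4.83 CPM (SD, n = 3) for CNTR and 38.1 ± 5.81 CPM (SD, n = 4) for PAMH F3. Of the genes tested, 1.13% had a lower value of this difference. It ran from -0.94 to -0.77 when each library was left out in turn. An annotated gene of unknown coding status on the other strand overlaps Cdkn1a by 1046 bases and had at most 1 count in a library.

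Cdkn2b (ENSMUSG00000073802, chromosome 4 from 89306299 to 89311039) encodes p15, an inhibitor of CDK4 and CDK6. The CNTR libraries were at 10.6, 19.6 and 25.9 CPM, and the PAMH F3 libraries at 9.61, 9.55, 8.23 and 8.06 CPM. Most of the spread was among the CNTR mice, whose replicate 1 came within about 1 CPM of the PAMH F3 libraries, while the PAMH F3 libraries were close together. The coefficient of variation was 41.1% in CNTR and 9.37% in PAMH F3. The difference in mean log2 CPM was -0.99 ± 0.39 (SE), and it was -1.35 without CNTR replicate 1 and -0.71 without CNTR replicate 3. The edgeR fit gave a log2 fold change of -0.79. Of the genes tested, 0.644% had a lower difference in mean log2 CPM.

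Cdkn2a (ENSMUSG00000044303, chromosome 4 from 89274471 to 89294653) lies beside Cdkn2b, with 11645 bases between the 2 genes on the same strand. Its p16 and p19ARF transcripts start at separate sites and share exons, and gene counts do not tell them apart. It had between 12 and 37 counts per library, the fewest of the family,, so that counting error weighs most on it. The levels were 0.573, 1.11 and 1.08 CPM in CNTR and 0.737, 0.542, 0.474 and 0.376 CPM in PAMH F3. The groups overlapped through CNTR replicate 1, which was also the lowest CNTR library for Cdkn2b, and the difference in mean log2 CPM was -0.76 ± 0.36 (SE). Without CNTR replicate 1 the groups no longer overlapped and the difference was -1.06, and without PAMH F3 replicate 1 they also did not overlap, at -0.92. The difference shrank to -0.59 without CNTR replicate 2 and to -0.56 after a correction for GC content and length. The edgeR fit gave a log2 fold change of -0.56.

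Cdkn1c (ENSMUSG00000037664, chromosome 7 from 143458339 to 143461050) encodes p57, an imprinted inhibitor expressed from the maternal allele. It was at 9.31, 13.7 and 7.40 CPM in CNTR and at 6.86, 7.41, 8.31 and 6.05 CPM in PAMH F3. CNTR replicate 2 was the highest library, and CNTR replicate 3, at 7.40 CPM, was level with PAMH F3 replicate 2. The difference in mean log2 CPM was -0.46 ± 0.28 (SE), -0.22 without CNTR replicate 2 and -0.67 without CNTR replicate 3. The transcripts of Cdkn1c have a median GC content of 59.4%, above that of 94.8% of the genes tested, and a correction for GC content and length moved the difference to -0.28. An antisense gene overlaps it by 892 bases and had at most 3 counts in a library. Its imprinted neighbor Kcnq1ot1, the noncoding RNA of the paternal allele, averaged 22.3 CPM over the CNTR libraries and 25.2 CPM over the PAMH F3 libraries, a difference of 0.19 ± 0.14 (SE) in mean log2 CPM, and Slc22a18 on the other side differed by 0.29 ± 0.39 (SE). In edgeR's fit the unadjusted p was 0.0153 for Kcnq1ot1 and 0.0246 for Slc22a18. These are given because, members aside, the other genes read beside the 7 members had an unadjusted p above 0.05. A p under 0.05 was found for 7.64% of all genes, and 0 genes passed after adjustment.

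Of the remaining members, Cdkn1b (ENSMUSG00000003031, chromosome 6 from 134920401 to 134925513), which encodes p27, was at 208 to 272 CPM in CNTR and 175 to 271 CPM in PAMH F3. The groups overlapped along most of their ranges, and the difference of -0.03 ± 0.18 (SE) in mean log2 CPM turned positive without CNTR replicate 2 or PAMH F3 replicate 3, up to 0.10. Cdkn2c (ENSMUSG00000028551, chromosome 4 from 109660876 to 109667189), which encodes p18, was at 27.4 to 35.3 CPM in CNTR and 26.5 to 34.0 CPM in PAMH F3, a difference of -0.06 ± 0.13 (SE) that became 0.05 without CNTR replicate 1. Cdkn2d (ENSMUSG00000096472, chromosome 9 from 21288410 to 21291407), which encodes the p19 of the INK4 family, was at 9.31 to 11.3 CPM in CNTR and 8.36 to 10.1 CPM in PAMH F3, a difference of -0.12 ± 0.10 (SE). The Cdkn2d difference was -0.03 after a correction for GC content and length and -0.05 without CNTR replicate 2. The groups overlapped for each of these 3 genes, and the difference was smaller than its standard error for Cdkn1b and Cdkn2c.

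**Figure D2:**
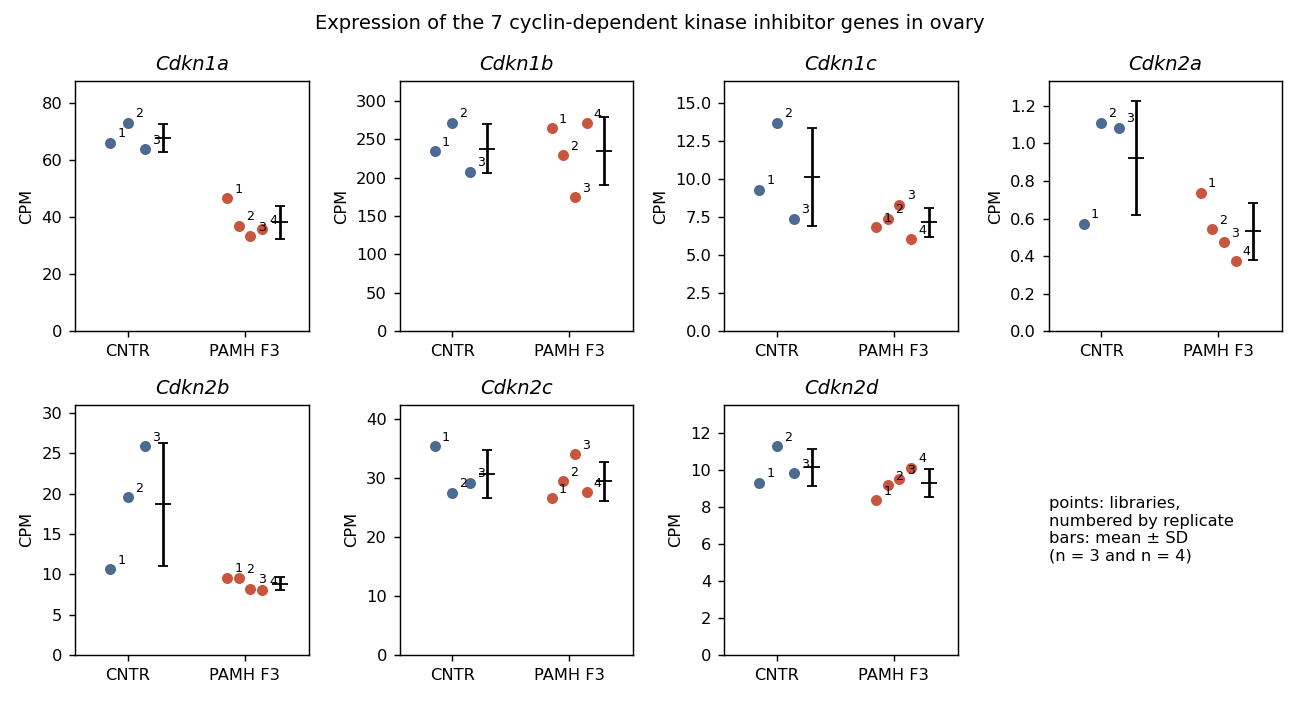
CPM of each inhibitor gene in the 3 CNTR and 4 PAMH F3 libraries (points numbered by replicate), with mean ± SD. For Cdkn1a the PAMH F3 libraries lie at 33.2 to 46.5 CPM and the CNTR libraries at 63.7 to 73.0 CPM, and for Cdkn2b the PAMH F3 libraries end at 9.61 CPM, just below CNTR replicate 1 at 10.6 CPM.

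**Figure D3:**
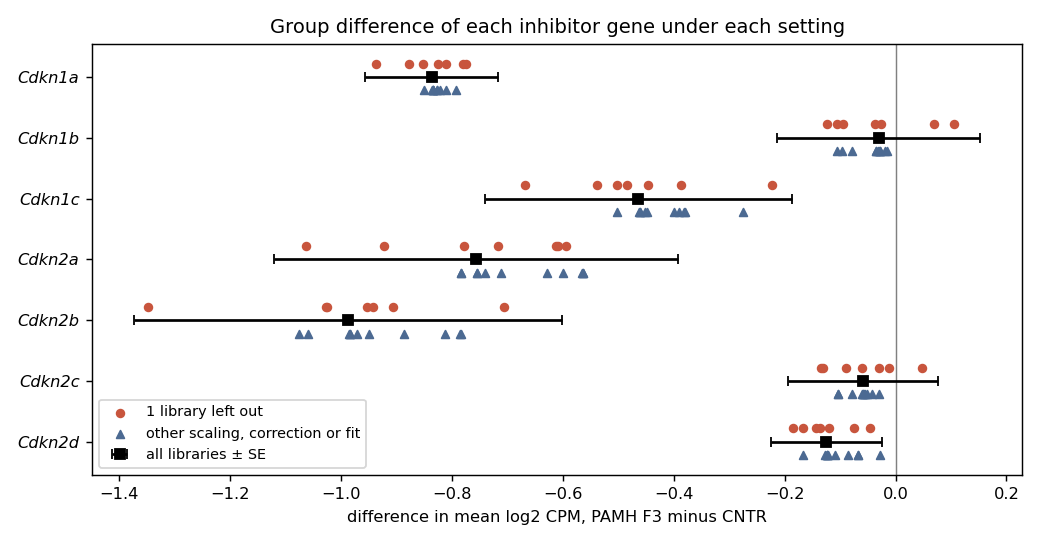
Difference in mean log2 CPM of each inhibitor gene, PAMH F3 minus CNTR, with all libraries (squares, ± SE), with 1 library left out (circles) and with another scaling, correction or fit (triangles). Cdkn1a stays between -0.94 and -0.77, whereas Cdkn1b and Cdkn2c lie on both sides of 0 when libraries are left out.

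Summed over each family, the CIP/KIP level was 76.3 ± 9.95 CPM per kilobase (SD, n = 3) in CNTR and 65.9 ± 10.3 CPM per kilobase (SD, n = 4) in PAMH F3, with Cdkn1b as its main part. The INK4 level was 32.1 ± 4.74 CPM per kilobase (SD, n = 3) in CNTR and 23.7 ± 1.10 CPM per kilobase (SD, n = 4) in PAMH F3. Within the summed level of all 7 genes, the share of Cdkn1a was 17.6% ± 0.585 (SD, n = 3) in CNTR and 12.0% ± 1.19 (SD, n = 4) in PAMH F3, and that of Cdkn1b was 48.2% ± 3.66 (SD, n = 3) and 57.3% ± 5.35 (SD, n = 4). In this whole tissue, fewer cells of a type and less RNA per cell cannot be told apart.

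The 2 nearest tested genes on each side of each member were read as differences in mean log2 CPM, with an edgeR p value only where given. Beside Cdkn1a, the p53-induced noncoding RNA Trp53cor1 (lincRNA-p21), which starts 11797 bases away, was at 0.928 to 1.02 CPM in CNTR and 0.723 to 0.921 CPM in PAMH F3. Its PAMH F3 libraries all lay below the CNTR libraries, as for 2.4% of all genes tested, the nearest being 0.921 and 0.928 CPM. The difference in mean log2 CPM was -0.21 ± 0.09 (SE), with an unadjusted p of 0.353 in edgeR's fit. The splicing factor gene Srsf3, 58348 bases away, differed by 0.03 ± 0.12 (SE). On the other side of Cdkn1a, Rab44 differed by 0.36 ± 0.44 (SE) and Cpne5 by -0.57 ± 0.40 (SE), both with overlapping libraries. Beside the Cdkn2a and Cdkn2b pair, Mtap, which encodes an enzyme of methionine salvage, differed by 0.01 ± 0.06 (SE). Dmrta1 on the far side differed by 0.06 ± 0.15 (SE), Gm12633, a pseudogene farther out, by 0.17 ± 0.55 (SE), and AL805899.2, beyond Mtap, by 0.38 ± 0.74 (SE), all with overlapping libraries. Beside Cdkn1c, Kcnq1 differed by 0.09 ± 0.22 (SE) and Nap1l4 by -0.04 ± 0.03 (SE). Around Cdkn1b, Gpr19 (0.08 ± 0.14, SE), 2810454H06Rik (0.32 ± 0.19), Lockd (-0.05 ± 0.37) and Apold1 (-0.31 ± 0.15) lay on both sides of 0. The same held around Cdkn2c for 9630013D21Rik (-0.09 ± 0.12, SE), Rnf11 (-0.05 ± 0.08), Faf1 (-0.05 ± 0.08) and Elavl4 (0.39 ± 0.21). Around Cdkn2d the differences were -0.0010 ± 0.06 (SE) for Kri1, -0.16 ± 0.18 for Atg4d, 0.10 ± 0.33 for Ap1m2 and 0.10 ± 0.16 for Slc44a2. The libraries of all these neighbors of Cdkn1b, Cdkn1c, Cdkn2c and Cdkn2d overlapped between the groups.

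**Figure D4:**
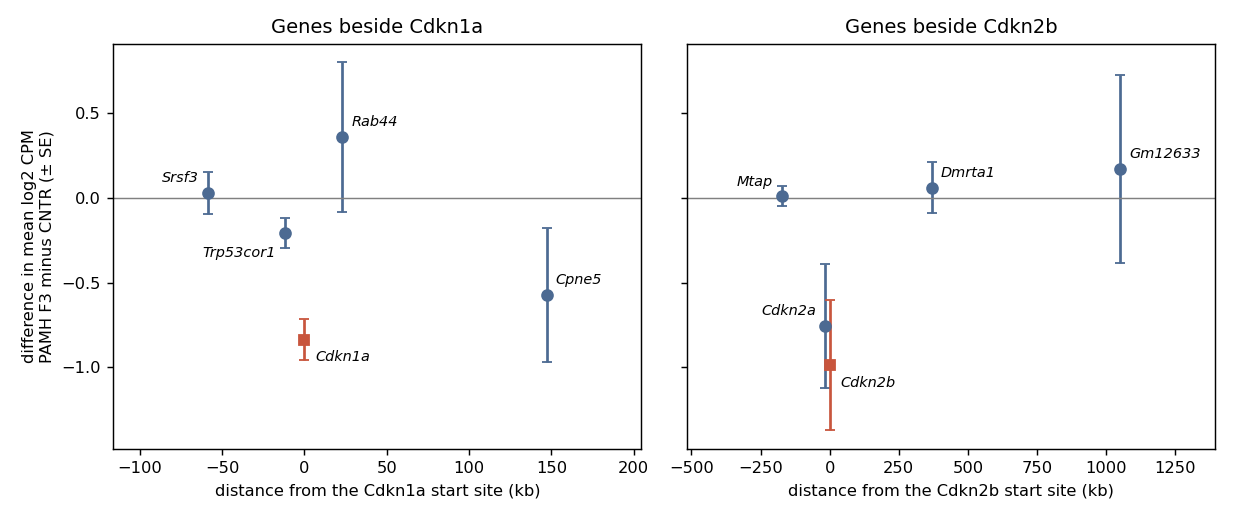
Difference in mean log2 CPM (PAMH F3 minus CNTR, ± SE) of the 2 nearest tested genes on each side of Cdkn1a (left) and Cdkn2b (right), by distance of their start sites in kilobases, with the inhibitor itself as a square. Srsf3, Mtap and Dmrta1 lie near 0, and Cdkn2a lies beside Cdkn2b at -0.76.

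The genes most like Cdkn1a across the 7 libraries were Tpst2, Epdr1 and Homer3, with root mean square differences of 0.14, 0.14 and 0.15 between log2 CPM values centered on each gene's mean. The values of Cdkn1a itself deviated from their mean by 0.44 on this scale. Tpst2 was at 66.9 to 90.6 CPM in CNTR and 33.3 to 58.4 CPM in PAMH F3, where replicate 1 was again the highest library. The genes most like Cdkn2b were Adra1a (0.25), its neighbor Cdkn2a (0.25) and Gm12841 (0.25), each of them at about 1 CPM or below. The likeness is over 7 libraries that include the group difference, and it was not tested.

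Among 24 partners of the inhibitors at the G1/S step, 4 were higher and 0 lower in PAMH F3 at an unadjusted p under 0.05 in edgeR's fit, and 0 passed after adjustment. These made up 16.7% of the list. Over all 18779 genes tested the share was 7.64%, with 704 genes higher and 731 lower. The median log2 fold change of the list was 0.06, against 0.0049 over all genes tested. Rbl1, which encodes the retinoblastoma-related p107, was at 34.2 CPM in CNTR and 40.9 CPM in PAMH F3 on average, and its libraries did not overlap (edgeR adjusted p = 0.540). The repressor gene E2f8 averaged 5.84 CPM in CNTR and 7.84 CPM in PAMH F3, also without overlap (edgeR adjusted p = 0.597). Libraries did not overlap for 12.5% of the list and for 4.25% of all genes tested. Ccnd1, the cyclin D1 gene, was at 85.6, 83.1 and 56.9 CPM in CNTR and 83.5, 89.6, 126 and 69.5 CPM in PAMH F3, with overlap of the groups (edgeR adjusted p = 0.567). Ccnd2, the D-type cyclin of proliferating granulosa cells, was at 337 and 356 CPM on average, and Ccnd3 at 58.6 and 50.2 CPM. The kinase genes averaged 329 and 315 CPM for Cdk4, 78.0 and 79.8 CPM for Cdk6 and 60.7 and 64.4 CPM for Cdk2, with overlapping libraries. Ccne1 was at 4.58 and 5.23 CPM and Ccne2 at 21.7 and 21.7 CPM, in each case with overlapping libraries.

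Of the 24 S phase and mitosis genes, 1 was higher and 0 lower at an unadjusted p under 0.05, and 0 passed after adjustment. The share was 4.17%, against 7.64% of all genes tested. That gene, the mitotic factor Foxm1, was at 18.7 to 23.3 CPM in CNTR and 22.7 to 27.0 CPM in PAMH F3 (edgeR adjusted p = 0.651). The proliferation marker Mki67 was at 84.7 to 138 CPM in CNTR and 124 to 158 CPM in PAMH F3, with overlap. The replication gene Mcm3 was at 65.7 and 78.3 CPM on average. The list's median log2 fold change was 0.02. Among 14 genes for the turnover of the inhibitor proteins, 0 had an unadjusted p under 0.05, and the F-box gene Fbxw7 and the ligase genes Huwe1 and Cul1 had the smallest p values, with edgeR adjusted p values from 0.693 to 0.804. Of 7 other negative regulators of CDKs, Cables1 was at 89.1 CPM in CNTR and 111 CPM in PAMH F3 on average (edgeR adjusted p = 0.606), and the other 6 had an unadjusted p at or above 0.05. Next by p were Cdk2ap1, at 9.79 and 10.3 CPM on average, and Cdk2ap2, at 54.6 and 44.5 CPM, both with overlapping libraries.

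Of 24 transcriptional regulators of the family, 1 was higher and 1 lower at an unadjusted p under 0.05, and 0 passed after adjustment. The share was 8.33%, near the 7.64% of all genes tested. Foxo1, which encodes a forkhead factor of granulosa cells, was at 478, 414 and 646 CPM in CNTR and 585, 651, 658 and 768 CPM in PAMH F3 (log2 fold change 0.40, edgeR adjusted p = 0.536). Jund, an AP-1 gene, was at 7.65, 34.6 and 8.20 CPM in CNTR and 4.48, 4.43, 8.54 and 4.48 CPM in PAMH F3 (log2 fold change -0.91, edgeR adjusted p = 0.511). CNTR replicate 2 was far above every other library for Jund, and the groups overlapped. Trp63, a relative of p53 found in oocytes, had the next smallest p and was at 4.98 to 6.36 CPM in CNTR and 6.12 to 7.92 CPM in PAMH F3 (edgeR adjusted p = 0.689).

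Of 22 p53 targets tested, Cdkn1a left out, 0 were higher and 3 lower at an unadjusted p under 0.05 (Gadd45a, Phlda3 and Btg2), and 0 passed after adjustment. The share was 13.6%, against 7.64% of all genes tested. The median log2 fold change of the list was -0.03, with 8 genes above 0 and 14 below it. The DNA damage response gene Gadd45a was at 59.5, 110 and 69.7 CPM in CNTR and 50.3, 58.8, 75.2 and 46.7 CPM in PAMH F3. CNTR replicate 2 was its highest library, and the groups overlapped (edgeR adjusted p = 0.511). Btg2, an antiproliferative gene, was at 63.3 to 65.5 CPM in CNTR and 51.7 to 65.0 CPM in PAMH F3, with PAMH F3 replicate 1 at the CNTR level (edgeR adjusted p = 0.652). Of 19 FOXO targets other than Cdkn1b, 1 was higher (Irs2) and 3 lower (Klf2, Gadd45b and Sesn3), and 0 passed after adjustment, with a median of -0.07. Genes with an unadjusted p under 0.05 made up 21.1% of the FOXO list, against 7.64% of all genes tested. Klf2, which encodes a transcription factor of endothelium, was at 10.4, 15.9 and 10.9 CPM in CNTR and 7.45, 8.82, 10.1 and 7.18 CPM in PAMH F3, without overlap (edgeR adjusted p = 0.511). Gadd45b was at 9.31, 17.4 and 12.0 CPM in CNTR and 7.65, 8.07, 8.87 and 8.09 CPM in PAMH F3, also without overlap (edgeR adjusted p = 0.511). Libraries did not overlap for 15.8% of the FOXO list and for 4.25% of all genes tested.

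**Figure D5:**
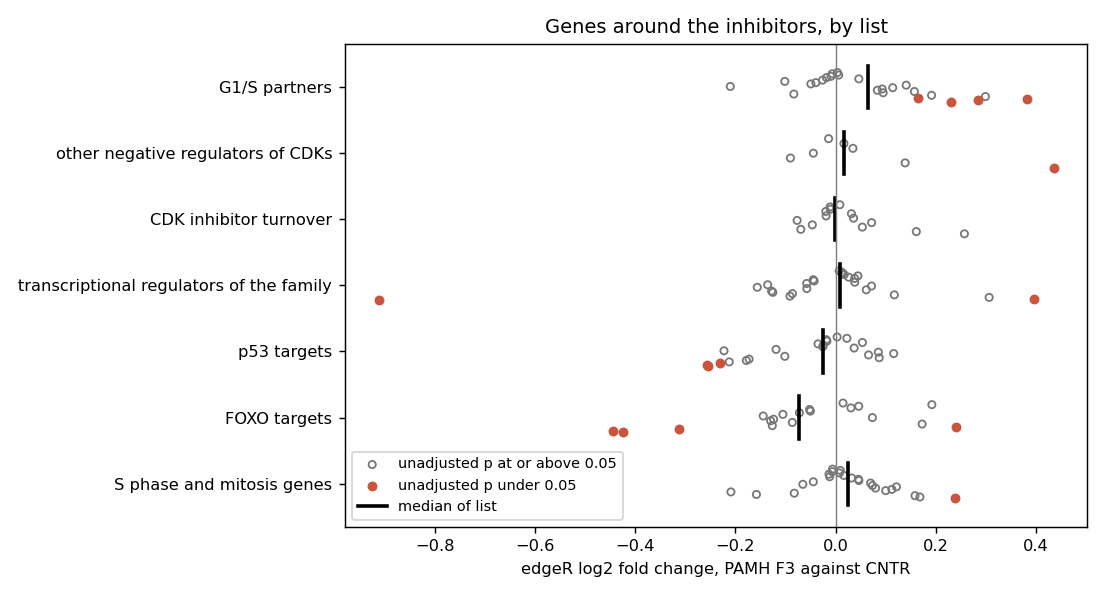
edgeR log2 fold change of PAMH F3 against CNTR for the genes of 7 lists around the inhibitors, with the members themselves left out, filled points for an unadjusted p under 0.05 and a bar at each list's median. The medians lie between -0.07 and 0.06, and 0 genes passed the adjusted threshold.

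Markers of the cell types in ovary were read beside these values. Over all genes tested, 7.64% had an unadjusted p under 0.05, and those with the lower level in PAMH F3 made up 3.89%. Of 10 luteal markers, 0 were higher and 3 lower in PAMH F3 at an unadjusted p under 0.05 in edgeR's fit (Ptgfr, Idh1 and Prlr), 0 passed after adjustment, and their summed level was 12897 to 15959 CPM in CNTR and 10580 to 14792 CPM in PAMH F3. Ptgfr, the receptor for the luteolytic prostaglandin, was at 577, 516 and 883 CPM in CNTR and 593, 302, 227 and 309 CPM in PAMH F3, so that PAMH F3 replicate 1 was the highest library of its group for both Ptgfr and Cdkn1a. Of the 10 luteal markers, 3 had a higher mean log2 CPM in PAMH F3, namely Parm1 (0.21 ± 0.20, SE), Star (0.08 ± 0.28, SE) and Hsd3b1 (0.05 ± 0.16, SE). The median difference in mean log2 CPM over the luteal list was -0.23. All 6 endothelial markers had a lower mean log2 CPM in PAMH F3, with Pecam1 (log2 fold change -0.44) and Emcn (-0.21) at an unadjusted p under 0.05, and their sum was 254 to 295 CPM in CNTR and 210 to 301 CPM in PAMH F3. Of 10 granulosa markers, Inhbb (0.58) and Hsd17b1 (0.42) were higher and Amh (-0.34) and Foxl2 (-0.25) lower at an unadjusted p under 0.05, with sums of 3098 to 4447 and 3417 to 4589 CPM. All 5 smooth muscle markers and all 6 adipocyte markers had a lower mean log2 CPM in PAMH F3, 0 of them at an unadjusted p under 0.05. Their sums were 1412 to 2084 and 1129 to 1772 CPM for smooth muscle and 235 to 775 and 98.9 to 552 CPM for adipocytes, in CNTR and in PAMH F3. Of 9 theca or stroma markers tested, Tcf21 was lower at an unadjusted p under 0.05, with sums of 2237 to 2765 and 1980 to 2267 CPM, as was Lgals7 among 8 surface epithelium markers, with sums of 750 to 909 and 599 to 951 CPM. In the lists for oocytes, leukocytes, oviduct epithelium and red blood cells, 0 genes had an unadjusted p under 0.05. The oviduct marker Ovgp1 averaged 3903 CPM in CNTR and 4222 CPM in PAMH F3. Sums of the oviduct list were 3108 to 5491 and 2773 to 6553 CPM, so the inhibitor levels may include RNA from oviduct. No marker of any list passed after adjustment. The sums of all 11 marker lists overlapped between the groups. The part of cell composition in the inhibitors' differences was not tested.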

How the data were processed

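Ovarian poly(A) RNA from 3 CNTR and 4 PAMH F3 mice was sequenced by the authors in stranded TruSeq libraries as single reads of 50 bases. They mapped reads to mm10 with STAR 2.5.3a and assigned reads with a unique alignment to genes (HTSeq-count 0.6.1p1, union mode), and the strand setting and Ensembl release are not given in the sources used here. The deposited values are raw read counts per gene, and 5 summary lines per library (reads outside genes were 5.82% to 7.37% of alignments) were left out. Identifiers were matched to GENCODE M21 (55394 of 55487).

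Counts were scaled by TMM over all gene rows (edgeR 4.0.16, R 4.3.3), and log2 CPM used a prior count of 0.5. The 18779 genes kept by filterByExpr (minimum count 10) were tested with edgeR's quasi-likelihood F test with 2 surrogate variables from svaseq (sva 3.50.0, number from num.sv), as the study's methods put unwanted variation into the model, with Benjamini-Hochberg adjustment over all of them. DESeq2 1.42.0 served as an alternative. Levels per kilobase used the union of annotated exons.

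The members and gene lists were chosen with earlier results of these data known. Named genes were the 7 members, the cyclins and kinases that they bind, the 3 genes with the smallest p of each list, 2 tested neighbors on each side, and the 3 genes most like Cdkn1a and Cdkn2b. Marker genes were named where a list's sum is given. Irs2, and the motifs, were chosen after their values were seen.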

Additional observations from a re-analysis of the deposited data

Results flagged for a closer look

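Within the 4 PAMH F3 libraries, 1 library stood far from the others for 4 of the 64 genes examined, and chance alone gives about 5% of such groups. The measure is the gap to the nearest library divided by the range of the group, and values past Dixon's 95% critical value are given. For Jund it was 0.986, with PAMH F3 replicate 3 at 8.54 CPM and the others at 4.43 to 4.48 CPM. Btg2 (0.904) had PAMH F3 replicate 1 at 65.0 CPM and the lowest of the others at 51.7 CPM. For Mcm3 the value was 0.871, with PAMH F3 replicate 4 at 94.9 CPM and the others at 70.8 to 73.9 CPM. The noncoding gene AL805899.2, a neighbor of Cdkn2a, had a value of 0.838, with PAMH F3 replicate 4 at 0.188 CPM and the others at 0.510 to 0.572 CPM. None of the 7 inhibitor genes was among these 4.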

How the results depend on the processing

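The number of genes past the adjusted threshold was 0 in edgeR's fit with 2 surrogate variables and also with 0, 1 or 3 of them, with median-ratio scaling, with robust fitting, with at least 10 counts in every library and with a replicate block without surrogate variables. It was 111 genes with 2 members in DESeq2 with the same surrogate variables, 6 genes with 1 member (Cdkn1a) in DESeq2 without them, and 8 genes with 1 member (Cdkn1a) with no filter on low counts, and the cause was not tested. With each library left out in turn, it ran from 0 to 39 genes and from 0 to 1 members, reaching 39 without CNTR replicate 1 (Cdkn2b) and 37 without PAMH F3 replicate 1 (Cdkn1a). Differences in mean log2 CPM moved by less than the spread between libraries in every setting tried, with Cdkn1a between -0.85 and -0.79 and Cdkn2b between -1.08 and -0.78 over 11 other scalings, corrections and fits. With each library left out, Cdkn1b and Cdkn2c changed sign and the other 5 members stayed lower in PAMH F3. Cdkn1a and Cdkn2b remained without overlap in each scaling. Leaving out a library cannot bring overlap to groups that have none, so those settings could not decide this for the 2 genes. Replicate numbers 1 to 3 occur in both groups, but deviations from the group means correlated by 0.09, 0.09 and -0.23 for the same-numbered libraries, and CNTR replicates 2 and 3 correlated best with a library of another number, so the numbers were not taken as a pairing. The replicate block gave 0 genes and 0 members past the threshold and 447 genes at an unadjusted p under 0.05, against 741 without block or surrogate variables. With the median transcript length in place of the exon union, 4 of the 7 members kept their position in the order of levels, and 5 did in the CNTR or the PAMH F3 libraries alone. At 12 to 37 counts per library, depth limits what can be said of Cdkn2a.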
